A study of Mus musculus with 4 samples.

Results

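The BMP signal response genes described here were Id1, Id2, Id3, Smad6, Smad7, Bambi and Bmpr1a, 7 of the 31053 genes in the count matrices. They were chosen by symbol. Their unique molecular identifiers (UMIs, each standing for 1 captured mRNA molecule) were summed per library and per cell type over the cells that the authors had named. Levels are given as CPM, UMIs of a gene per 1000000 UMIs of all genes in the same cells.

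Bone morphogenetic proteins (BMPs) bind receptors such as Bmpr1a, which activate Smad1, Smad5 and Smad9. These join Smad4 and switch on target genes, among them the Id genes, whose products bind basic helix-loop-helix transcription factors and keep them from DNA. Smad6, Smad7 and Bambi, a receptor-like protein without a kinase domain, dampen the signal, and Bambi is also known as a target of Wnt signalling. In the intestine, BMP signalling is known to be low at the crypt base and to increase towards the villus.

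Cells positive for the red reporter TOM, encoded by the allele R26RTom, were sorted from mouse duodenal crypts and sequenced from the 3' ends of their mRNA (10x Genomics, v3.1). The WT mice were Atoh1CreER-T2;R26RTom and the APC-KO mice are labelled Atoh1Cre;Apcfl/fl;R26RTom, whereas the series text names the inducible CreER-T2 for both. Mice of both genotypes had received tamoxifen (1 mg/mL) as 2 doses, the second after 24 h, and cells were taken 12 h later. The driver gene Atoh1 belongs to the secretory lineage, so the reporter and the Apc deletion, a loss of a negative regulator of Wnt signalling, were directed to those cells and their progeny.

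Each genotype had 2 libraries, numbered within each genotype, and 4 values in a series always stand for WT 1, WT 2, APC-KO 1 and APC-KO 2. The labels give no animal, age or batch, so p-values between genotypes measure only the spread between these libraries, which may be technical. Those of lineages or cell types come from fits with a library term. They measure the spread left between sums of cells from the same libraries. The authors had kept 4814, 3821, 356 and 6243 cells with 24677647, 21003179, 3009636 and 27285079 UMIs. APC-KO replicate 1 stood apart by its small number of cells, with between 5 and 184 cells of a type. Kept cells held 40.4%, 37.6%, 5.15% and 50.3% of all UMIs of their library, at a median depth of 4841.5, 5354, 8370 and 3973 UMIs. Each pair of libraries shared 1 to 8 cell barcodes. Apc itself was read at 87.2, 77.9, 88.1 and 88.1 CPM; 3' reads need not cover the deleted part of the gene, so this does not check the labels. In each of the 12 deposited cell types, the CPM of its own marker list, averaged over the 4 libraries, was higher than in any type outside that list. Within APC-KO 1, however, the goblet list was higher in PANETH-PRE (53123 CPM) than in GP cells (43334 CPM). PANETH-PRE cells of APC-KO 2 had 44909 CPM of the goblet list and 41373 CPM of the Paneth list. The type names are printed as deposited. Those names rest on expression in the same cells, so differences between types are not independent of them. Endothelial, stromal and immune marker lists together came to less than 10 CPM in PANETH cells of each library.

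CPM values of a cell type also depend on how much of its RNA a few genes take up. Over 2127 genes with at least 20 CPM in each WT cell type, the median gene lay 1.45 log2 units below its mean over types in PANETH (-1.45) and at -0.62 in GOBLET, and between -0.07 and 0.36 in the other types. The 7 Paneth markers alone summed to 401206 and 388074 CPM in WT PANETH cells. The edgeR comparisons below scale this shift out, whereas the CPM values, and the ranks and ratios of types read from them, do not.

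Bmpr1a (ENSMUSG00000021796, chromosome 14, 34410734-34503341, minus strand) encodes a type I BMP receptor and was detected in all 12 types. Its level was highest in NON-EC cells, with 153.5, 183, 171 and 141 CPM, and nearly the same in EC cells, with 154, 179.5, 150.0 and 157 CPM. The marker list of enterochromaffin cells (Tph1, Tac1 and others) was highest in EC, and that of other enteroendocrine hormones (Cck, Gip and others) in NON-EC. The lowest level was in PANETH cells, at 19.6, 22.2, 0 and 32.0 CPM, a type where the median WT gene lay at -1.45 log2 units. That shift is left in these CPM. Of the 11 neighbouring pairs in the order of WT means, 4 had library ranges that did not overlap, and the 2 enteroendocrine types at the top did overlap. An antisense gene, Gm17110, overlaps Bmpr1a and was counted separately; the strand setting of the counting is not given in the sources used here, so reads of the pair may not be told apart.

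Bambi (ENSMUSG00000024232, chromosome 18, 3507923-3516404, plus strand) was concentrated in a few types. NON-EC cells had 80.5, 100.3, 99.96 and 36.5 CPM, PANETH cells 60.3, 91.3, 22.1 and 8.13 CPM and EEC-PRE cells, the enteroendocrine precursors by their markers, 71.3, 48.6, 58.9 and 22.7 CPM. In WT CPM, PANETH overlapped both NON-EC and EEC-PRE cells, which did not overlap each other. These CPM keep the shifts of -1.45 log2 units in PANETH, 0.32 in NON-EC and 0.19 in EEC-PRE, so they do not settle the order of these types. All 3 stood above PANETH-PRE cells in WT, at 19.5, 13.7, 0 and 1.10 CPM. EC cells were lower still in WT, at 9.58, 11.8, 7.32 and 5.69 CPM. In GOBLET and ENTERO-PRO cells, no Bambi UMI was counted in any library. For GOBLET, 3 UMIs would have been 3.70, 2.12, 14.7 and 3.06 CPM, so lower levels were not detectable at this depth. The remaining 5 types had at most 5.40 CPM in every library.

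Shares of cells with a Bambi UMI were compared after each cell was thinned to 2000 UMIs, since depth differed between types. In WT PANETH cells the share was 8.49% (9 of 106 cells, exact binomial 95% interval 3.96 to 15.5%) and 14.0% (28 of 200, 9.51 to 19.6%), against 41.5% and 47.0% unthinned. GOBLET cells, where no Bambi UMI was counted, gave 0 of 163 and 0 of 270 cells, allowing up to 2.24% and 1.36% by the same exact interval. Median depth before thinning was 12643.5 and 10371.5 UMIs in PANETH and 4904 and 5252 UMIs in GOBLET cells. At equal depth, the PANETH intervals lay above those of GOBLET in both WT libraries. Intervals of this kind cover counting error only.

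Smad7 (ENSMUSG00000025880, chromosome 18, 75367529-75395935, plus strand), an inhibitory Smad that responds to BMP and TGF-beta signals, varied less between types. In CPM, with the shift between types left in, its highest WT mean was in GOBLET cells, with 51.8, 58.7, 53.9 and 45.8 CPM. Its lowest was in PANETH cells, with 5.42, 9.66, 11.1 and 13.0 CPM. Among its 11 neighbouring pairs, only EEC-PRE and PANETH at the lower end had WT ranges that did not overlap. Smad6 (ENSMUSG00000036867, chromosome 9, 63953076-64022059, minus strand), the inhibitory Smad most tied to BMP receptors, was close to the limit of detection. It had 50 UMIs in all WT cells and 63 in all APC-KO cells, or 1.09, 1.10, 2.66 and 2.02 CPM over all cells. None of its neighbouring types could be told apart.

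Id1 (ENSMUSG00000042745, chromosome 2, 152736251-152737410, plus strand) was highest in GOBLET cells, at 289.7, 394, 274 and 198 CPM. EC cells followed with 192, 267, 205 and 96.8 CPM, and ISC cells, where the stem cell list (Lgr5, Olfm4 and others) was highest, had 131, 169.5, 171.5 and 96.7 CPM. At the other end stood NON-EC cells with 28.4, 17.4, 14.3 and 30.1 CPM, PANETH-PRE cells with 11.4, 27.5, 0 and 40.8 CPM and PANETH cells with 14.9, 12.1, 11.1 and 28.7 CPM. The WT mean in GOBLET was 25.3 times that in PANETH, in CPM that keep the shifts of -0.62 and -1.45 log2 units in these types. After thinning, 35.6% and 48.1% of WT GOBLET cells held an Id1 UMI against 3.77% and 1.50% of WT PANETH cells.

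Id3 (ENSMUSG00000007872, chromosome 4, 136143497-136145755, plus strand) shared most of this order. EC cells had 229.9, 326, 154 and 142 CPM, GOBLET cells 223, 326, 215.5 and 214 CPM and ENTERO-PRO cells 219, 289, 56.2 and 165 CPM. These 3 WT means overlapped with one another and with GOBLET-PRE. The lowest values were in PANETH, at 8.81, 14.0, 11.1 and 30.9 CPM, and in EEC-PRE, at 10.8, 7.20, 25.2 and 31.5 CPM. Id3 thus had a second low point in enteroendocrine precursors, where Id1 had 52.5, 34.2, 92.5 and 31.5 CPM. RNA outside cells, read from barcodes with 1 to 50 UMIs, held Id3 at 166, 237, 213 and 133 CPM. Subtracting 5% of that profile left Id3 at 0.71, 2.03, 0 and 25.7 CPM in PANETH and at 2.83, 0, 17.5 and 25.7 CPM in EEC-PRE.

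Id2 (ENSMUSG00000020644, chromosome 12, 25093799-25097140, minus strand) differed from its 2 relatives in where it was high. EC cells had 257, 317, 318 and 171 CPM and stood apart from all other types in WT. GOBLET cells, the peak of Id1, ranked 10th of the 12 types for Id2 with 33.3, 44.6, 44.1 and 24.5 CPM. That rank keeps the shift of -0.62 log2 units in GOBLET. With the shift scaled out by edgeR, Id2 was higher in GOBLET than in ISC, which ranked above it in CPM. PANETH cells were again lowest, with 2.03, 1.93, 11.1 and 16.8 CPM from 3, 4, 2 and 31 UMIs. Over the 12 WT type means on the log2(CPM + 1) scale, Pearson's r was 0.86 for Id1 with Id3 and 0.53 for Id1 with Id2, while Id2 with Bmpr1a gave 0.72. These correlations describe 12 points that share libraries and depth.

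**Figure D1:**
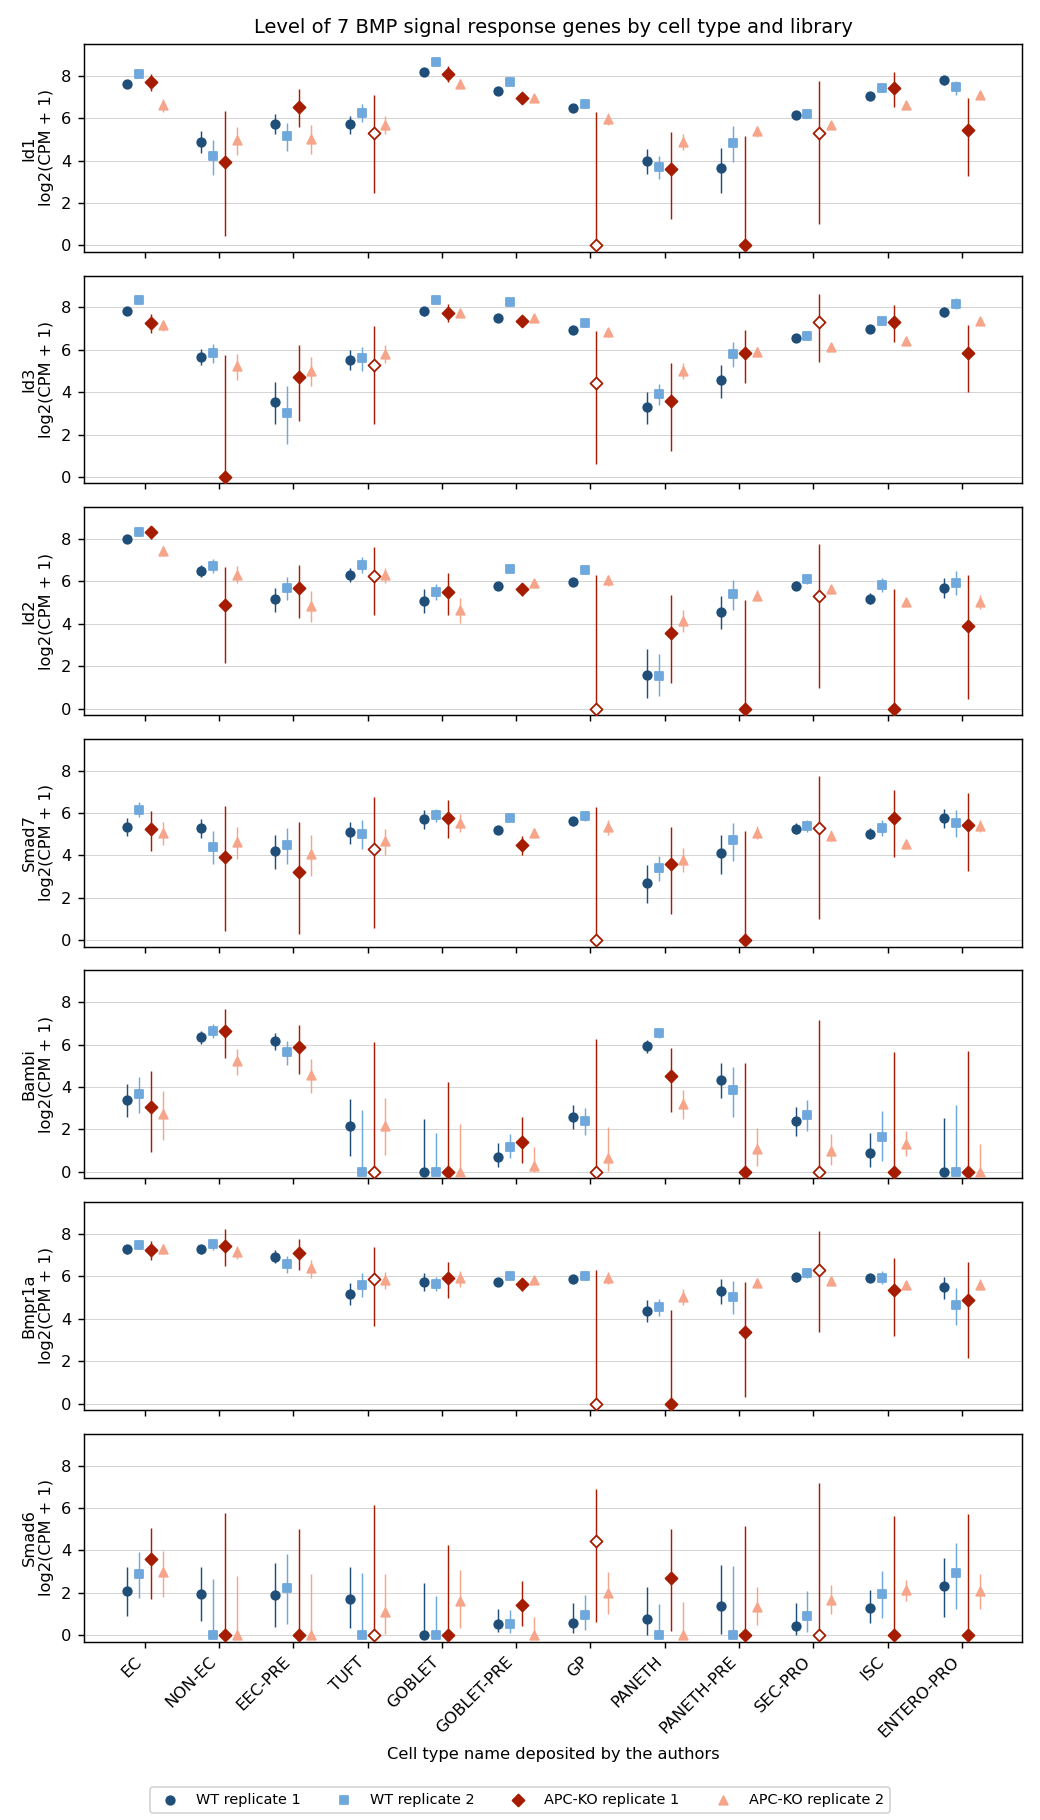
Levels of the 7 genes, as log2(CPM + 1), in 12 cell types (x axis), with 1 point per library and 95% exact Poisson intervals for counting error as lines; open marks have under 10 cells. Id1 and Id3 peak in goblet and EC cells, Id2 in EC cells, and Bambi in NON-EC, PANETH and EEC-PRE cells, with 0 UMIs in GOBLET and ENTERO-PRO cells.

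Promoter sequence was at hand for 4 of the 7 genes, from RefSeq on build GRCm38.p6. In windows from 250 bases before to 20 bases after the start, both strands were searched for GGCGCC and GTCTAGAC, motifs known to be bound by Smads, and for CTTTGA, the core of the Wnt factor site. Of 32851 such windows of all genes, 10.4% held GGCGCC, 0.183% GTCTAGAC and 14.7% CTTTGA. The stretches of 30 bases around each hit are printed because they are the only matches among the 4 members searched. They run 5′ to 3′ on the gene's strand, with the motif in capitals. That of Id2 lies at chr12:25096305-25096334, that of Smad6 at chr9:64022045-64022074 and that of Bmpr1a at chr14:34502726-34502755.
Id2: caggccccctgGGCGCCcagcgcacactgt
Smad6: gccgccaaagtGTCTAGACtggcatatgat
Bmpr1a: gcgcgcgcgccGGCGCCtcttgctcgcccg
The hits begin 231, 4 and 198 bases before the RefSeq start. In GENCODE vM21, the Smad6 stretch reaches 15 bases into the 5′ UTR, and those of Id2 and Bmpr1a lie within the gene but outside its exons. The Id3 window held none of the 3 motifs, and Id1, Smad7 and Bambi had no entry. A match is a description of these letters and not a site of binding.

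Bambi ran opposite to Id1 over the cell types. Pearson's r over the 12 WT means was -0.81 for Bambi with Id1 and -0.76 with Id3, but -0.31 with Id2; in APC-KO replicate 2 alone the values were -0.75, -0.79 and 0.15. NON-EC, EEC-PRE and PANETH cells formed the end with high Bambi and low Id1, and GOBLET and ENTERO-PRO cells the other end. In WT PANETH cells, 89 and 189 Bambi UMIs stood beside 22 and 25 Id1 UMIs, so that there were 405 and 756 Bambi UMIs per 100 of Id1. In WT GOBLET-PRE cells this number was 0.390 and 0.612, and in WT EC cells 4.98 and 4.40. EC cells had the next highest Id1 level after GOBLET together with a Bambi level of 10.7 CPM ± 1.54 (SD, n = 2 WT libraries), where GOBLET had no Bambi UMI.

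**Figure D2:**
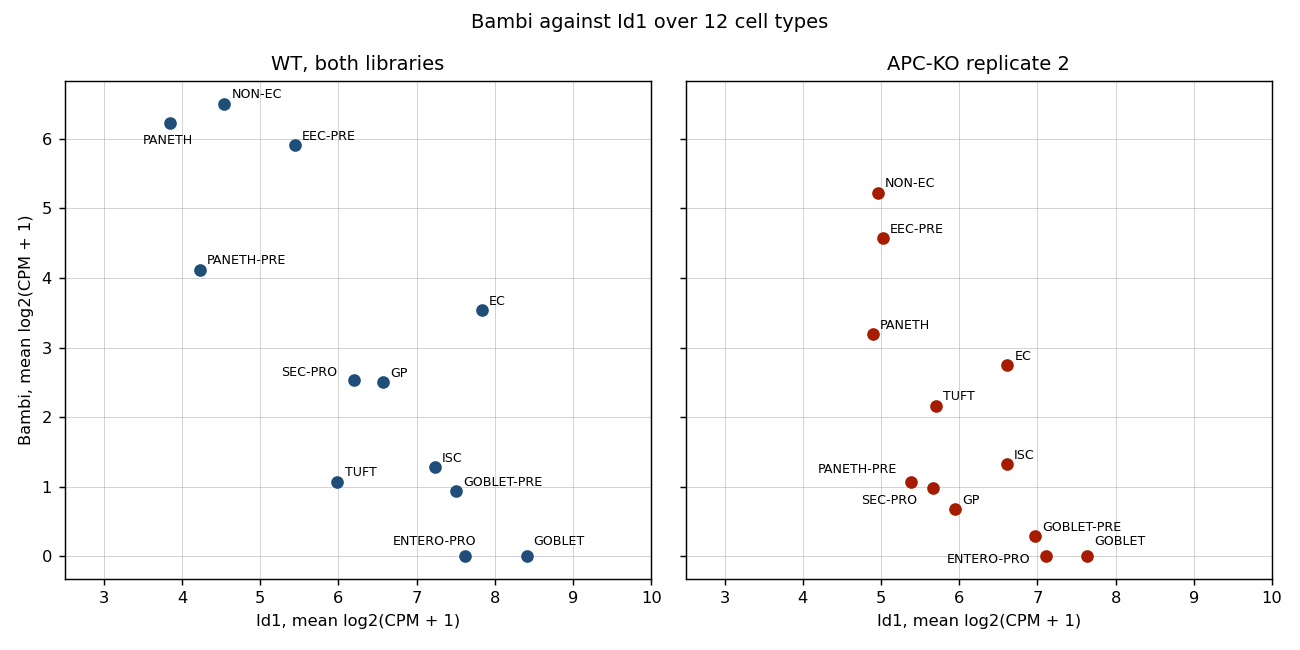
Bambi (y axis) against Id1 (x axis), both as log2(CPM + 1), with 1 point per cell type, as the mean of the 2 WT libraries on the left and for APC-KO replicate 2 on the right. NON-EC, PANETH and EEC-PRE cells lie at high Bambi and low Id1 in WT, where r over the 12 types is -0.81, and PANETH lies lower on the Bambi axis in APC-KO replicate 2.

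The 2 secretory lineages were compared in WT by summing PANETH with PANETH-PRE cells and GOBLET with GOBLET-PRE cells. Bambi was 7.10 log2 units higher in the Paneth than in the goblet lineage (SE 0.26, adjusted p = 6.1e-33, edgeR quasi-likelihood test), from 101 and 195 UMIs against 4 and 9. Id1 was lower there, at -2.98 (SE 0.17, adjusted p = 4.2e-23), as were Id3 at -2.99 (SE 0.16, adjusted p = 3.4e-25) and Id2 at -2.19 (SE 0.21, adjusted p = 8.7e-14). Smad7 was also lower, at -1.28 (SE 0.20, adjusted p = 2.5e-07), and Bmpr1a, at -0.35 (SE 0.17, adjusted p = 0.10), was not called; without APC-KO replicate 1, which enters the shared spread, it was (-0.38, adjusted p = 0.032). With cells thinned to 2000 UMIs, Smad7 lost its call (-0.93, edgeR adjusted p = 0.060). Of the 6 members tested, 1 was higher and 4 lower, whereas 16.1% of all 10265 genes tested were higher and 17.1% lower.

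The other genes of the pathway did not follow the Id genes as a group in this comparison. Of 31 tested besides the members, 8 were higher and 3 lower in the Paneth lineage, and their median difference was 0.01, as it was over all genes. Among ligands, Bmp7 (3.28), Gdf15 (3.31) and Tgfb1 (2.52) were higher and Bmp2 (-1.70) lower. The coreceptor Rgmb was higher by 2.84, and the signal-carrying Smad4 and Smad5 by 0.52 and 0.83. Of the other response genes, 2 were lower, Id4 at -1.75 and Klf4 at -1.69, and 2 were higher, Hes1 by 0.91 and Atoh8 by 2.12. Wnt feedback genes, listed because Bambi is a Wnt target, were higher for 13 of 14 tested, among them Axin2 (2.63) and Lgr5 (5.52), with a list median of 2.96. Of 12 immediate early genes, which respond to handling, 6 were higher and 2 lower.

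Within the enteroendocrine types of WT, Bambi and the Id genes also parted. EC cells exceeded NON-EC cells by 3.29 log2 units for Id1 (SE 0.21, adjusted p = 3.3e-19), 2.42 for Id3 (SE 0.16, adjusted p = 4.0e-19) and 1.62 for Id2 (SE 0.12, adjusted p = 2.8e-16) in the edgeR fit of all WT types. Smad7 was higher by 0.85 (SE 0.26, adjusted p = 0.018; 0.10 with thinned cells), and Bambi was lower, at -2.99 (SE 0.29, adjusted p = 2.8e-12). The receptor Bmpr1a did not differ beyond its error, at 0.07 (SE 0.12, adjusted p = 0.82). Of 6 members tested, 4 were higher and 1 lower, against 5.82% and 5.44% of all genes. Of 33 other pathway genes, Skil (0.67) and Tob1 (0.36), both inhibitors inside the cell, were higher, and Fstl1 (-2.14) and Msx1 (-2.09) lower. Immediate early genes moved with the Id genes: 10 of 12 tested were higher in EC cells, with a list median of 0.79. Of 6 enterocyte markers, 3 were higher there, Apoa1 (2.30), Apoa4 (1.52) and Sis (0.36), and the list summed to 648 and 765 CPM in EC against 549.6 and 609 CPM in NON-EC. Pecam1, the 1 endothelial marker of 5 that could be tested, was higher by 4.63, at 31.9 and 25.6 CPM, while Cdh5, Emcn and Eng had no UMI in either type. The part of these markers in the Id difference was not tested.

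ISC and GOBLET cells of WT span stem to mature secretory cells. Id1 was lower in ISC, at -2.21 (SE 0.11, adjusted p = 5.3e-26), as were Id3 at -1.92 (SE 0.11, adjusted p = 1.0e-23) and Id2 at -0.80 (SE 0.20, adjusted p = 0.00038) in edgeR. Smad7 (-1.65, SE 0.21, adjusted p = 7.1e-10) and Bmpr1a (-0.73, SE 0.17, adjusted p = 0.00025) were lower too, although Bmpr1a was not called with thinned cells (-0.40, edgeR adjusted p = 0.28). In CPM, which keep the shift between types, Id2 and Bmpr1a ran the other way. Their WT means were 46.0 and 59.8 CPM in ISC against 38.9 and 50.9 CPM in GOBLET. Enterocyte markers moved with them: all 6 were detected and had lower estimates in ISC, 5 of them called, with a list median of -2.11 and sums of 548 and 513 CPM in ISC against 1770.4 and 1957 CPM in GOBLET. Their part was not tested. The contrast is broad, with 28.6% of 11031 genes lower, and 57% called in either direction, so 5 lower members of 6 tested are read against those shares. Bambi had 3 and 3 UMIs in ISC and none in GOBLET, and no fold is given. Of 33 other pathway genes, 8 were higher in ISC and 11 lower; the 11 were the response genes Klf4 (-4.27), Id4 (-5.28) and Junb (-0.93), the ligand Bmp2 (-4.55), the inhibitors Skil (-2.76), Tob1 (-2.37), Ski (-0.84) and Ppm1a (-0.77), the receptors Acvr2a (-0.86) and Tgfbr2 (-0.96), and Smad1 (-0.43). Higher in ISC were Rgmb (2.55), Smad4 (1.12), Hes1 (1.14), Tob2 (0.82) and Fstl1 (2.71), and the ligands Bmp3, Bmp7 and Gdf15, which had no UMI in GOBLET.

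Between genotypes, the clearest difference was in Bambi of Paneth cells. The 89 and 189 UMIs of WT PANETH cells (60.3 and 91.3 CPM) stood against 4 and 15 UMIs (22.1 and 8.13 CPM) for APC-KO, with no overlap, which 2.95% of all genes showed in this direction. The difference was -3.64 on the log2 scale (edgeR, SE 0.42, adjusted p = 7.6e-05), and Bambi was the only member called, where 1.41% of all 6942 genes tested were called, 0.821% lower and 0.591% higher. The groups did not overlap either in the Paneth lineage, at 48.3, 77.8, 13.9 and 3.94 CPM, where the edgeR fold was -4.48 (SE 0.45, adjusted p = 0.0032). There, 0.663% of genes were called, 0.419% lower and 0.244% higher, and 2.72% lay below WT without overlap. In the thinned PANETH cells, 0 of 16 and 6 of 274 APC-KO cells (2.19%, exact 95% interval 0.808 to 4.71%) held a Bambi UMI, against the 8.49% and 14.0% of WT. The 0 of 16 cells of APC-KO replicate 1 allow up to 20.6% by the same interval, which includes both WT shares.

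These calls rested on few libraries. In PANETH alone the call was lost when cells were thinned (adjusted p = 0.071, edgeR), when WT replicate 2 was left out (-3.37) and when APC-KO replicate 2 was left out (-2.08). It held when WT replicate 1 (-3.71) or APC-KO replicate 1 (-4.02) was left out. In the lineage it was lost when either WT library was left out, at -4.69 for the first and -4.03 for the second. It held there when the first (-4.82) or second APC-KO library (-2.42) was left out. Each fit with a library left out has 1 library of that genotype. Its p rests on the spread of the other genotype alone, so only the folds are given. The direction was the same in each of these fits. PANETH cells of APC-KO also carried more goblet and enterocyte marker RNA: the 7 goblet markers, all detected, summed to 7365, 6167, 14510 and 30951 CPM, and the 6 enterocyte markers to 130.1, 107, 989 and 349 CPM, with Fabp1 (3.12) and Apoa1 (1.88) called higher. Of 11 immediate early genes tested in PANETH, 3 were called lower in APC-KO, Nr4a1 (-1.93), Zfp36 (-1.96) and Atf3 (-1.70), with a list median of -1.23. No Wnt feedback gene was called in PANETH, where 6 of 11 estimates were higher and 5 lower, with a list median of 0.14. None of 13 was called in the lineage, with 5 estimates higher, 8 lower and a list median of -0.27. Median depth of PANETH cells was 12643.5, 10371.5, 3552 and 5954 UMIs, and their median mitochondrial share 1.04%, 1.07%, 4.57% and 2.25%. PANETH cells held 70.5%, 82.6%, 62.8% and 40.4% of the UMIs of the lineage. The part of these shifts in the Bambi difference was not tested.

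No Id gene was called between genotypes in Paneth cells with low counts filtered. Their estimates were positive, but without APC-KO replicate 2 those of Id1 and Id3 in PANETH turned to -0.57 and -0.38, and without WT replicate 2 that of Id1 to -0.13. Id2 was at 2.03, 1.93, 11.1 and 16.8 CPM in PANETH, a fold of 2.27 (SE 0.66, adjusted p = 0.10, edgeR) that rested on 3 and 4 WT UMIs. It was called with no filter on low counts (2.26, adjusted p = 0.040). Subtracting RNA outside cells set Id2 to 0 in both WT libraries, so the call under that setting compares with 0 and its fold is not used. CPM of the median gene was itself 0.51 log2 units higher in APC-KO PANETH cells, and 44.7% of all genes had APC-KO libraries above WT without overlap, as did Id2 and Smad7. In the Paneth lineage, Id3 lay above WT at 12.9, 21.1, 27.8 and 47.5 CPM, as did 48.5% of genes. With that shift scaled out by edgeR, Id1 (0.26), Id3 (0.55), Bmpr1a (-0.34) and Smad7 (0.00) were not called, at adjusted p from 0.61 to 1.00. RNA outside cells, read from barcodes with 1 to 50 UMIs, held Id1 at 144.5, 160.2, 112 and 98.5 CPM, above its level in PANETH cells in each library. Subtracting 5% of that profile left Id1 at 7.84, 4.06, 5.78 and 25.1 CPM in PANETH.

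In goblet cells and their precursors, each Id gene had a lower estimate in APC-KO but none was called. In GOBLET the folds were -0.75 for Id1 (SE 0.28), -0.60 for Id2 (SE 0.35) and -0.52 for Id3 (SE 0.28), with adjusted p of 0.38 to 0.55 in edgeR. In GOBLET-PRE they were -0.44 (SE 0.17), -0.34 (SE 0.24) and -0.37 (SE 0.23), with adjusted p of 0.62 to 0.74. Without WT replicate 2, Id2 in GOBLET-PRE turned to 0.040. Smad7 was at -0.36 and -0.57 and Bmpr1a at 0.08 and -0.02 in the same types, also without a call. Calls were rare in both types, at 0.0837% and 0.00974% of all genes. In GOBLET, the APC-KO libraries of Id1 and Id3 lay below WT without overlap, as did 14.4% of genes, and those of Bmpr1a above, as did 29.5%. In GOBLET-PRE, Id1, Id3 and Smad7 lay below, as did 30.6%.

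The genotype difference of the Id genes itself differed between the lineages. The interaction, the fold in the Paneth lineage minus that in the goblet lineage, was 0.92 for Id1 (SE 0.26, adjusted p = 0.042), 1.29 for Id2 (SE 0.29, adjusted p = 0.0049) and 1.00 for Id3 (SE 0.23, adjusted p = 0.0065) in edgeR. Thus 3 of 6 members were called higher, where 2.26% of all 10265 genes were called, 0.74% higher and 1.52% lower. Bambi was at -3.22 (SE 1.12, adjusted p = 0.14), with 3 and 1 UMIs in the APC-KO goblet lineage, so a stronger difference in Paneth than in goblet cells was not shown. None of 31 other pathway genes was called, and their median was -0.35.

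The interaction leaned on single libraries. All 3 Id calls were lost when WT replicate 1 was left out, where Id2 had the lowest adjusted p in edgeR (0.052), and when WT replicate 2 was (0.52 and above). They were lost as well when APC-KO replicate 2 was left out, where Id1 (-0.83) and Id2 (-0.10) changed sign and Id3 was at 0.87. They held without APC-KO replicate 1, a fit with 1 APC-KO library, at 1.05, 1.38 and 1.03 for Id1, Id2 and Id3. They were also lost with cells thinned to 2000 UMIs, and those of Id1 and Id3 with the DESeq2 Wald test, which gave Id2 no adjusted p. Immediate early genes moved the other way, with 7 of 12 called lower and a list median of -0.78, among them Nr4a1 (-1.86) and Zfp36 (-1.08). So did Wnt feedback genes, with 12 of 14 estimates lower and a list median of -0.85, where Ephb3 (-1.45) and Sox9 (-0.73) were called. Goblet markers summed to 15608, 9821, 28874 and 39268 CPM in the Paneth lineage. PANETH cells held 70.5%, 82.6%, 62.8% and 40.4% of the UMIs of the Paneth lineage. WT means in PANETH and PANETH-PRE were 13.5 and 19.4 CPM for Id1, 1.98 and 32.0 for Id2 and 11.4 and 38.8 for Id3. In PANETH-PRE alone the edgeR genotype folds were 0.93, 0.13 and 0.59 for Id1, Id2 and Id3, none called. The part of any of these in the interaction was not tested.

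**Figure D3:**
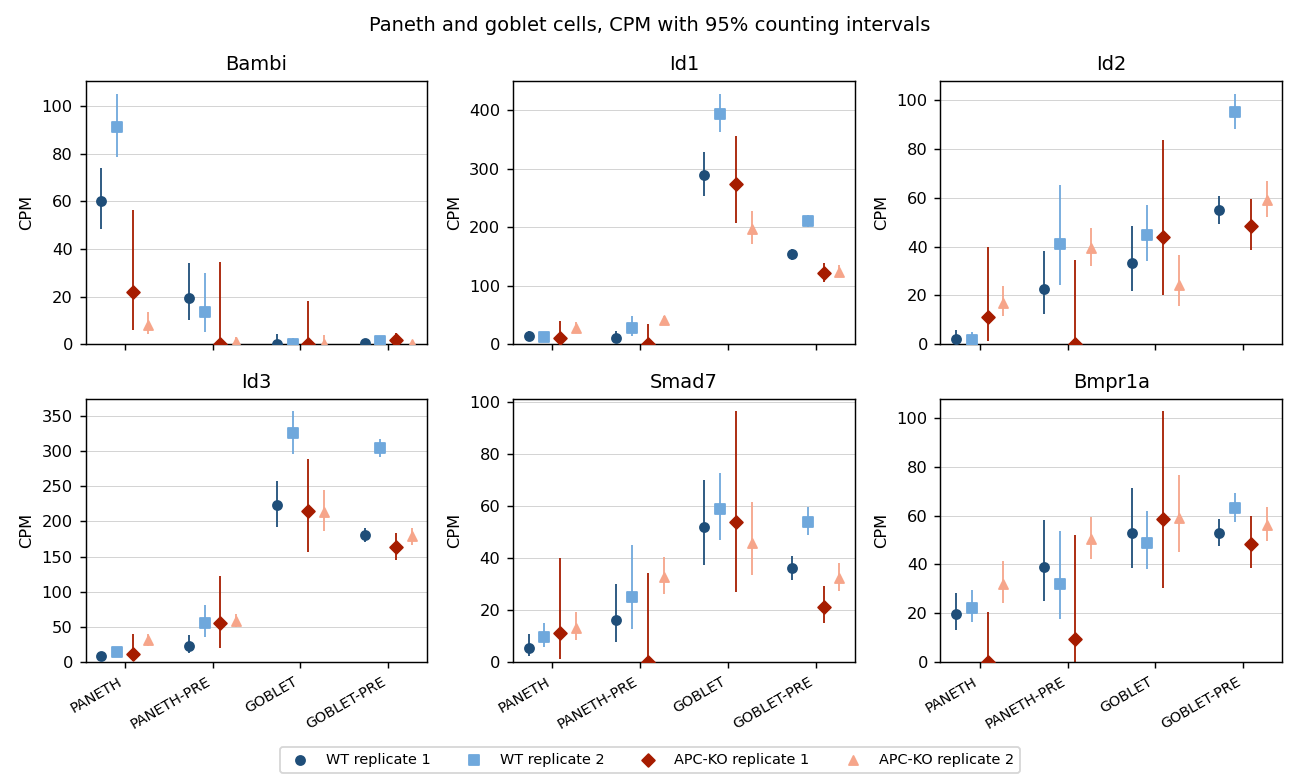
CPM of 6 genes (y axes, linear from 0) in Paneth and goblet cells and their precursors, with 1 point per library and 95% exact Poisson intervals as lines. Bambi in PANETH is at 60.3, 91.3, 22.1 and 8.13 CPM over the 4 libraries, and Id1 in GOBLET lies between 198 and 394 CPM with all libraries far above PANETH.

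EC cells gave lower Id estimates in APC-KO, without a call. For Id1 the groups overlapped, at 192, 267, 205 and 96.8 CPM, whereas for Id3, at 229.9, 326, 154 and 142 CPM, APC-KO lay below WT without overlap, as did 24.3% of genes. The edgeR folds were -0.66 for Id1 (SE 0.32, adjusted p = 0.62), -0.85 for Id3 (SE 0.22, adjusted p = 0.40) and -0.23 for Id2 (SE 0.28, adjusted p = 0.88). Without APC-KO replicate 1, which had 45 EC cells, Id1, Id3 and Id2 were at -1.19, -0.91 and -0.70. Without APC-KO replicate 2 instead, Id1 was at -0.071, Id3 at -0.76 and Id2 at 0.24. Either fit leaves 1 APC-KO library, so only the folds are given. Immune markers summed to 14.4, 17.1, 62.2 and 59.2 CPM in EC cells, and their part in these values was not tested. Id3 was called by edgeR with no filter on low counts (-0.89, adjusted p = 0.020), a setting in which 174 of 15542 genes were called. Bmpr1a stayed near no difference, at -0.04 (SE 0.19). No gene of 8690 was called in EC cells in this fit, 0% of all, with 729 at an unadjusted p under 0.05 and 13 called by DESeq2.

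Over all kept cells of a library, none of the 7 members was called and neither was any of the 13345 genes (0%; 495 at an unadjusted p under 0.05, 23 called by DESeq2). Bambi was at 11.9, 16.2, 7.64 and 2.82 CPM, below WT in both APC-KO libraries, at -1.56 on the log2 scale (SE 0.56, edgeR adjusted p = 1.00). When APC-KO replicate 1 was left out, Bambi was at -2.30, and when APC-KO replicate 2 was left out it was at -0.67. Smad6 was at 1.08 (SE 0.39) and Smad7 at -0.51 (SE 0.20), and Id1, Id2, Id3 and Bmpr1a between -0.33 and -0.08, each of which turned positive when 1 of the libraries was left out, reaching at most 0.065. Bambi, Smad7 and Bmpr1a lay below WT without overlap, as did 26% of all genes, and Smad6 above, as did 8.44%. Of the pathway genes other than members with most UMIs in their role over all cells, Bmp2 had 15.8, 18.5, 16.9 and 9.86 CPM, Bmpr2 33.2, 34.5, 31.2 and 33.8 CPM and Smad1 82.1, 88.6, 77.4 and 71.2 CPM. Wnt feedback genes had 12 higher and 3 lower estimates in APC-KO over all cells, none called, with a list median of 0.39. These sums over all cells mix types in different proportions.

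In 5 other types with 10 to 19 cells in APC-KO replicate 1, no member was called by edgeR with low counts filtered and all 4 libraries. Of all genes, 3.57% were called in ISC, 1.53% in PANETH-PRE, 0.654% in EEC-PRE, 0.113% in NON-EC and 0.0788% in ENTERO-PRO cells. Bambi was at -0.92 (SE 0.34, adjusted p = 0.40) in NON-EC and -0.89 (SE 0.41, adjusted p = 0.54) in EEC-PRE cells. Without APC-KO replicate 1 it was at -1.19 and -1.28, and without APC-KO replicate 2 it turned to 0.14 and 0.11. In ISC cells, Id3 was at -0.59 (SE 0.25, edgeR adjusted p = 0.22). It was at -0.70 without APC-KO replicate 1 and turned to 0.12 without APC-KO replicate 2. In ENTERO-PRO cells, Id1 (-0.67) and Id3 (-0.78) moved to -2.25 and -2.17 without APC-KO replicate 2, a fit in which APC-KO was 11 cells. Id3 in EEC-PRE cells went the other way, at 1.83 (SE 0.56, edgeR adjusted p = 0.18), from 8, 4, 3 and 18 UMIs. In PANETH-PRE cells, Bambi had 12, 6, 0 and 3 UMIs and was left out by the filter. With no filter beyond 1 count it was called at -3.97 (edgeR adjusted p = 0.0030). Filtered but without APC-KO replicate 1 it was tested and not called (-3.97).

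**Figure D4:**
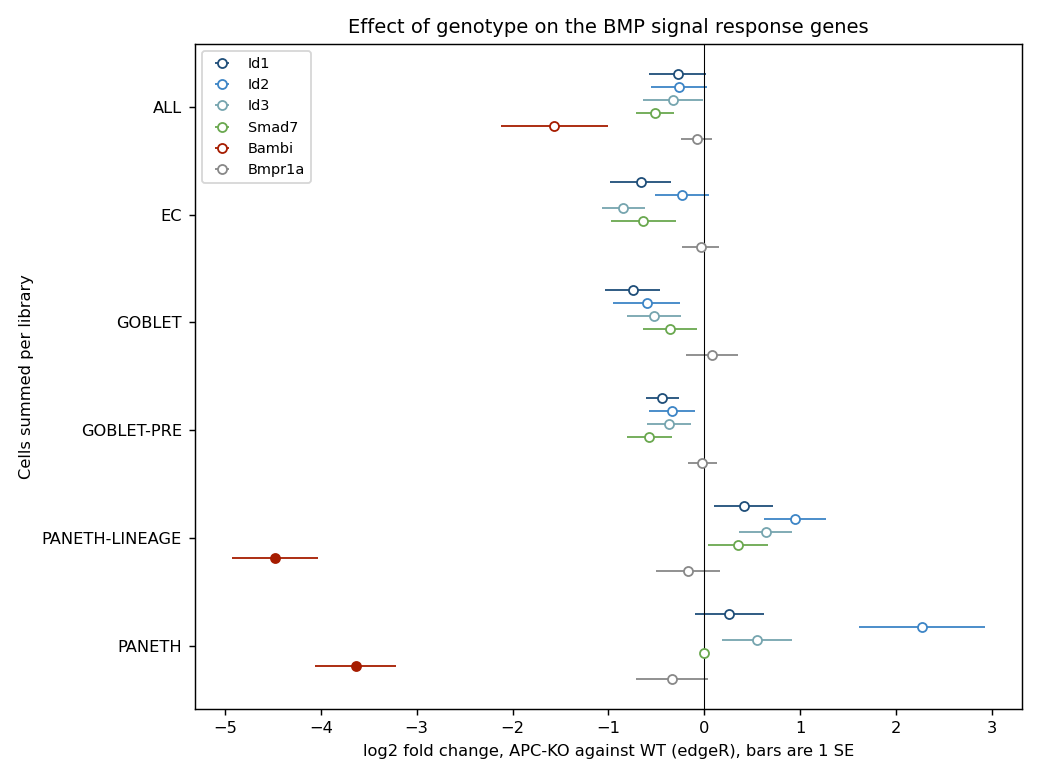
Log2 fold change of APC-KO against WT (x axis) for each gene in 6 sums of cells (y axis), from edgeR, with lines of 1 SE and filled marks for an adjusted p under 0.05; no SE is drawn for Smad7 in PANETH, whose fold is 0.00, and Smad6 is left out. Bambi in PANETH (-3.64) and in the Paneth lineage (-4.48) are the 2 filled marks.

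Among the other 59 genes listed for the pathway, none passed between genotypes in the edgeR fits of all cells, EC, GOBLET, GOBLET-PRE or the Paneth lineage, of 38, 25, 18, 29 and 27 tested. In PANETH alone, Gdf15, a distant member of the ligand family, was called lower (-4.19, SE 0.96, adjusted p = 0.031, edgeR), though its groups overlapped at 6.10, 17.9, 11.1 and 0 CPM. The genotype comparisons all draw on the same 4 libraries and are not independent of one another.

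The genes whose WT pattern over the 12 types was most like that of a member were ranked among 9009 genes by Pearson's r. For Bambi, the first was Wnt3 (0.90), a Wnt ligand made by Paneth cells, followed by Nrp2 (0.89) and Ggh (0.89). Wnt3 was at 67.8, 67.2, 27.6 and 108 CPM in PANETH, so its groups overlapped there. Id1 was most like Tmem238l (0.93), Dok4 (0.91) and Gpr160 (0.89), and Id3 most like Itpk1 (0.94), Dok4 (0.93) and Ifngr1 (0.92), so that 1 gene, Dok4, was named for both. Id2 was most like Vps54, Rab21 and Exoc7 (each 0.97), Smad7 most like Chmp2b (0.95), Tango2 and Nmi (both 0.94), and Bmpr1a most like Golim4, Ppp4r2 and 2310022B05Rik (each 0.96). For Smad6 the closest were Lipg (0.94), Slc13a1 (0.89) and Amn (0.86), from the few Smad6 UMIs given above.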

How the data were processed

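UMI counts of 2 WT and 2 APC-KO single-cell libraries were used as deposited by the authors, in unfiltered matrices; per the file headers and the submitters' processing notes they came from Cell Ranger 3.0.2, with STAR and mm10 named in those notes. Annotation and strand setting are not given in the sources used here. The authors' per-cell tables give counts of UMIs and genes, the mitochondrial share in percent and other values, namely library and cell type names; kept cells had 901 to 2999 genes and under 7% mitochondrial UMIs, and no doublet caller was run here.

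Counts were summed per library and cell type and compared with edgeR 4.0.16 (R 4.3.3): TMM factors, filterByExpr, quasi-likelihood test, two-sided, Benjamini-Hochberg adjustment over all genes tested, threshold 0.05. Types with at least 20 cells in each library were fitted, and those with at least 10 apart from them. An exact permutation test of 2 against 2 libraries cannot go below p = 0.3333 and was not used. For the lineages, 8 sums were fitted together and the library was a blocking term. For the comparisons of WT types, the sums of all 12 types in both WT libraries were fitted together, also with the library as a blocking term. Intervals are exact (95%). The fits were tested on simulated data, except the genotype fits of PANETH-PRE, ISC, NON-EC, EEC-PRE and ENTERO-PRO cells. Unchanged genes took a larger share of the calls than the threshold allows in both lineage fits. That share was 11.6% for Paneth against goblet in WT and 6.13% for the interaction. It was smaller than the threshold in the other fits tested.

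The genes named were the 7 members, pathway genes past the threshold and the 3 genes most like each member; the members and lists were chosen with earlier results of these data known. The CPM comparison with no overlap, levels after subtraction of RNA outside cells and other alternatives are in the closing section. Positions are from GENCODE vM21.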

Additional observations from a re-analysis of the deposited data

Results flagged for a closer look

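Genotype differences of 3 Id genes were not the same in the Paneth and goblet lineages by the interaction test of edgeR: the fold in the Paneth lineage exceeded that in the goblet lineage by 0.92 log2 units for Id1, by 1.29 for Id2 and by 1.00 for Id3. The fold in the Paneth lineage was 0.41 for Id1, 0.94 for Id2 and 0.64 for Id3, none of which was called alone. APC-KO replicate 1 entered the Paneth lineage with 16 PANETH and 11 PANETH-PRE cells and APC-KO replicate 2 with 274 and 602.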

How the results depend on the processing

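Of 607 alternative values of the fold changes named, 541 kept direction and side of the threshold, 21 lost a call, 13 gained one and 32 changed sign. The number of members called was 1 in EC and in PANETH-PRE and 2 in PANETH with no filter beyond 1 count, 2 in PANETH with RNA outside cells subtracted (where Id2 is at 0 in WT), and 0 in PANETH with thinned cells and in the interaction with thinned cells or DESeq2. Leaving out 1 library gave 0 to 1 members called in ALL, the Paneth lineage, PANETH, ISC, NON-EC and EEC-PRE, 0 to 3 in EC and the interaction and 0 to 2 in ENTERO-PRO. It moved the fold in ALL from -0.64 to 0.055 for Id1, -0.60 to 0.065 for Id2, -0.62 to 0.021 for Id3 and -0.18 to 0.057 for Bmpr1a. In EC it moved Id2 from -0.70 to 0.24 and Bmpr1a from -0.12 to 0.028, in GOBLET Bmpr1a from -0.039 to 0.11, and in GOBLET-PRE Id2 from -0.65 to 0.040 and Bmpr1a from -0.11 to 0.051. In the Paneth lineage it moved Id1 from -1.27 to 0.49, Id2 from -0.52 to 1.00 and Smad7 from -0.84 to 0.55, in PANETH Id1 from -0.57 to 0.43, Id3 from -0.38 to 0.72 and Smad7 (0.00) from -0.23 to 0.35, and in the interaction Id1 from -0.83 to 1.05, Id2 from -0.10 to 1.47 and Smad7 from -0.059 to 0.78. It moved Bambi from -1.19 to 0.14 in NON-EC and from -1.28 to 0.11 in EEC-PRE, and Id3 from -0.70 to 0.12 in ISC. Smad7 in PANETH was at -0.014 with DESeq2 size factors, -0.0044 with no filter and -0.11 with the replicate block. Bmpr1a turned to 0.080 in GOBLET-PRE, 0.16 in the Paneth lineage and 0.011 in the interaction with thinned cells, and to 0.27 in PANETH-PRE cells alone. The causes were not tested. With thinned cells, Smad7 lost its call between the lineages (-0.93) and between EC and NON-EC (0.90), and Bmpr1a between ISC and GOBLET (-0.40). With abundant genes left out, Id1 lost its call in the interaction (adjusted p = 0.056, edgeR).

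The replicate numbers did not pair the libraries: deviations of the same number correlated at -0.39 in ALL and between -0.06 and -0.01 in the other sums. With the replicate block no member changed its call, and 4 genes instead of 0 were called in ALL (1 with the numbers crossed, added after seeing the data). Bambi kept -4.57 in the Paneth lineage with the block. Over all genes, calls ranged across alternatives from 0 to 483 in ALL, 0 to 405 in EC, 0 to 79 in GOBLET (5 reported), 0 to 280 in GOBLET-PRE (1), 0 to 477 in the Paneth lineage (57), 0 to 225 in PANETH (98), 3 to 161 in PANETH-PRE (85), 16 to 786 in ISC (350), 1 to 344 in NON-EC (9), 0 to 285 in EEC-PRE (43), 2 to 392 in ENTERO-PRO (5), 1309 to 3905 for the lineages in WT (3399) and 36 to 364 in the interaction (232). For types of WT they ranged from 4212 to 6303 between ISC and GOBLET (6292) and from 824 to 1248 between EC and NON-EC (1242). DESeq2 gave Bambi no adjusted p in either Paneth fit. No library could be left out of the comparisons of WT types, which then have no residual degrees of freedom. Of 84 WT levels, 20 moved beyond 1 SD with thinned cells and 8 with RNA outside cells subtracted, both computed for levels after seeing the data. Depth limits Smad6 and the 16 PANETH cells of APC-KO replicate 1.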
